A study of Mus musculus with 25 samples.

Results

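The comparison described here is the step from 3 hr to 24 hr after anti-CD3ε in WNK1-deficient thymocytes. It was defined by sample title, with the 3 libraries titled 24h KO set against the 3 titled 3h KO, which makes 6 of the 25 libraries of the series, and by level, with 14071 of the 48795 listed genes kept because their mean normalized count over the 6 libraries was at least 10. No measured difference between the times entered the choice. The 6 mice were Wnk1 fl/fl and Rag1-/- and carried CD2-Cre, an iCre transgene under the human CD2 promoter that deletes the loxP-flanked exon 2 of Wnk1 in lymphoid cells. They were 7 to 8 weeks old and had received 150 µg of anti-CD3ε into the peritoneum either 3 or 24 hr before the thymus was taken. The 6 control libraries used for comparison came from Wnk1 fl/+ mice that were likewise Rag1-/- with CD2-Cre, of the same age and given the same injection, 3 at each time. Each library was made from Thy1.2+CD44- thymocytes of a separate mouse, sorted to hold the DN3 and DN4 stages, in 1 experiment. Further libraries of both genotypes at 0 hr (no injection) and 48 hr entered the fit that sets the spread.

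Thymocytes that lack RAG1 cannot rearrange their antigen receptor genes and stop at the pre-TCR checkpoint in the DN3 stage. Cross-linking CD3ε replaces the missing pre-TCR signal: within hours immediate-early transcription factors are induced and with them their own inhibitors, and over the following days the cells shut down the DN3 program, divide and move on towards the CD4+CD8+ stage. WNK1 is a serine/threonine kinase best known for control of cation-chloride cotransport through the kinases OXSR1 and STK39. Because whole sorted populations were measured, a lower value in fewer cells and a lower value in every cell cannot be told apart.

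Recovered depth of the 6 libraries ran from 23679071 to 48615751 reads. Wnk1 (chromosome 6, 119923969 to 120038695, GRCm38) had normalized counts of 6918, 7125 and 6659 at 3 hr and 3056, 3170.3 and 3535 at 24 hr in the libraries labelled WNK1-deficient, against 10068, 20719 and 12394 and 7281, 5433 and 6286 in the controls, so the deficient libraries lay below the control libraries of the same time. Reads from outside the deleted exon still count towards the gene. The fall of Wnk1 between the times (log2 change -1.09 ± 0.23, adjusted p = 0.0012) stood beside a log2 change of -1.13 in control thymocytes. Along the first principal component of all 25 libraries, which held 36.0% of the variance, the 3 hr libraries scored -38.9, -29.4 and -15.5 and the 24 hr libraries 76.9 to 83.6. Replicate 1 at 3 hr, the one at -15.5, stood apart: 123 genes in it exceeded 4 times the higher of the other 2 libraries of its group, against 7 to 24 such genes in each of the other 5 libraries. All WNK1-deficient 3 hr libraries were run in lane 4. Of the WNK1-deficient 24 hr libraries replicates 1 and 2 were run in lane 3 and replicate 3 in lane 4. In controls replicates 1 and 2 at 3 hr and replicate 3 at 24 hr were run in lane 3. Control replicate 3 at 3 hr and replicates 1 and 2 at 24 hr were run in lane 4. Lane thus shifted with time in opposite directions in the genotypes, so lane and the genotype by time difference are partly confounded. The 3 and 24 hr mice of both genotypes were male by their transcripts (Xist at most 13.8, Ddx3y at least 988) and the 0 and 48 hr mice female, so values at those times, shown as background, differ in sex and lane too.

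Markers of the sorted cells were high in each library, with a summed level of 8 thymocyte genes of 283100 to 361800 at 3 hr and 178200 to 209200 at 24 hr. Of these, 4 fell, among them Thy1, the antigen of the gate (43869, 41315 and 54466 at 3 hr, 10980.1, 11544 and 17950.1 at 24 hr, adjusted p = 5.0e-06). Cd44, the gene of the antigen that the gate excludes, rose from 140.1, 51.4 and 85.9 to 663, 741 and 689 (log2 change 3.02 ± 0.59, adjusted p = 5.4e-04), with no overlap between the times. Of the 6 B cell genes Ms4a1 was at 0 and Pax5 at or below 1.43 in each library, and Cd79b made up most of the sum, which was 378 to 427 at the earlier and 495 to 570.1 at the later time. The summed levels at 3 and 24 hr were 576 to 978 and 308 to 559 for 8 myeloid genes (1 fell), 35.7 to 109 and 114 to 274 for 6 dendritic cell genes (none passed; Cd209a, Siglech, Xcr1 and Clec9a at or below 4.59), and 613 to 2808 and 269 to 1114 for 4 erythroid genes (none passed). They were 2278 to 2804 and 1219 to 1274 for 7 thymic epithelial genes, mostly Epcam, of which Epcam and Aire fell. For stroma and endothelium Pdgfrb and Pecam1 made up nearly all of the sum of 22180 to 25840 and 17640 to 20350, with Pdgfra, Col3a1 and Cdh5 at or below 8.16. Among 6 genes of CD44+ early cells Kit and Bcl11a fell and the sums were 2698 to 7858 and 2412 to 2979.

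From 3 hr to 24 hr, 5273 of the 14071 genes changed (37.5%; limma, Benjamini-Hochberg adjusted p below 0.05), of which 2651 rose (18.8%) and 2622 fell (18.6%). The median log2 change over all tested genes was 0.01 and that of the changed genes, taken without sign, 0.94. At least 2-fold rises numbered 1250 and falls 1219, and at least 8-fold ones 216 and 215. Without replicate 1 at 3 hr 4715 genes changed, 2363 up and 2352 down. With lane as a covariate 5509 changed, of which 4800 were among the 5273. In the single 24 hr library that shares lane 4 with the 3 hr libraries, 99.5% of the 5273 genes lay beyond every 3 hr library in the direction of the call. Because that library also entered the calls, a high share was built in and cannot test the effect of lane. The groups of 3 did not overlap for 61.6% of all tested genes, 31.4% with the 24 hr libraries higher and 30.2% with them lower. Against the 0 hr libraries 30.5% of the genes differed at 24 hr.

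**Figure D1:**
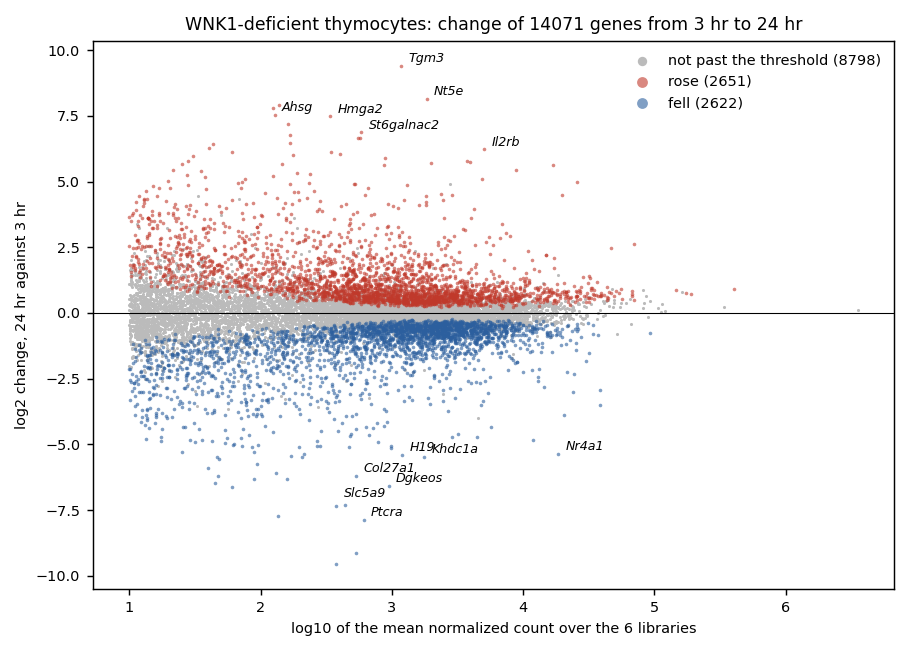
Log2 change from 3 hr to 24 hr (y axis) of 14071 genes against the log10 of their mean normalized count over the 6 WNK1-deficient libraries (x axis), with genes that rose in red, genes that fell in blue and the others in grey. Changes reach 9.41 for Tgm3 and -7.88 for Ptcra among the named genes, and 2651 genes rose and 2622 fell.

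Immediate-early transcription factors fell together. Of 12 tested genes, 4 of the EGR, 3 of the NR4A, 2 of the NAB and 3 of the IER (immediate early response) family, 10 fell and none rose, with a median log2 change of -2.25 against 0.01 over all genes, and 18.6% of all tested genes fell. Nr4a1 (chromosome 15, 101253902 to 101274795, GRCm38), an orphan nuclear receptor that tracks antigen receptor signal strength, had 27661, 36928 and 43584 normalized counts at 3 hr and 806, 1064 and 764 at 24 hr. The times were widely separated (log2 change -5.35 ± 0.35, adjusted p = 5.2e-09), yet the 24 hr libraries remained above the 4 libraries at 0 hr, which held 76.1 to 129.5. Its relative Nr4a3 fell from 7332, 8474 and 9913 to 356, 437 and 219 (log2 change -4.71 ± 0.40, adjusted p = 1.0e-07). For Nr4a2, the third member, 471, 427 and 530.0 became 355, 397 and 157, a difference that did not pass the test (log2 change -0.75).

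Egr2, a zinc-finger factor needed for passage of the checkpoint together with Egr1 and Egr3, fell from 3069, 3963 and 4595 to 674, 1013 and 364 (log2 change -2.60 ± 0.50, adjusted p = 4.5e-04). At 0 hr it had been at 5.38 to 14.1, so the 24 hr libraries again kept a part of the rise. Egr3, Egr4 and Egr1 fell too (log2 changes -3.47, -4.01 and -2.80). The EGR corepressors Nab1 and Nab2, which EGR factors themselves induce, fell (log2 changes -1.48 and -1.91). The exceptions beside Nr4a2 were Ier3, at 84.4, 41.4 and 74.8 and then 49, 56.6 and 64.2, and, with the smallest change that passed, Ier5 (log2 change -0.46).

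Of 10 AP-1 genes 7 fell and 1 rose, with a median log2 change of -2.45, beside 18.6% and 18.8% of all tested genes. Fos, which forms the AP-1 dimer with JUN proteins, had 414, 536 and 613 at 3 hr and 65.3, 62.7 and 35.4 at 24 hr (log2 change -3.27 ± 0.42, adjusted p = 8.7e-06). Fosb, Atf3 and Fosl2 fell as well (log2 changes -3.77, -3.21 and -2.92). Atf3 was at 8.16, 0 and 7.86 at 24 hr, and without the library at 0, replicate 2, its log2 change was -2.16. Jun fell from 2389.9, 2481 and 2466 to 241, 345 and 227 (log2 change -3.19 ± 0.49, adjusted p = 5.7e-05), which took it below its 0 hr level of 2090.0 ± 225 (mean ± SD, n = 4), unlike Fos, at 9.45 ± 2.33 before injection. Batf, an AP-1 partner of IRF factors in lymphocytes, went the other way, from 892, 593 and 608 to 1532, 1646 and 1834 (log2 change 1.28 ± 0.27, adjusted p = 0.0011).

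**Figure D2:**
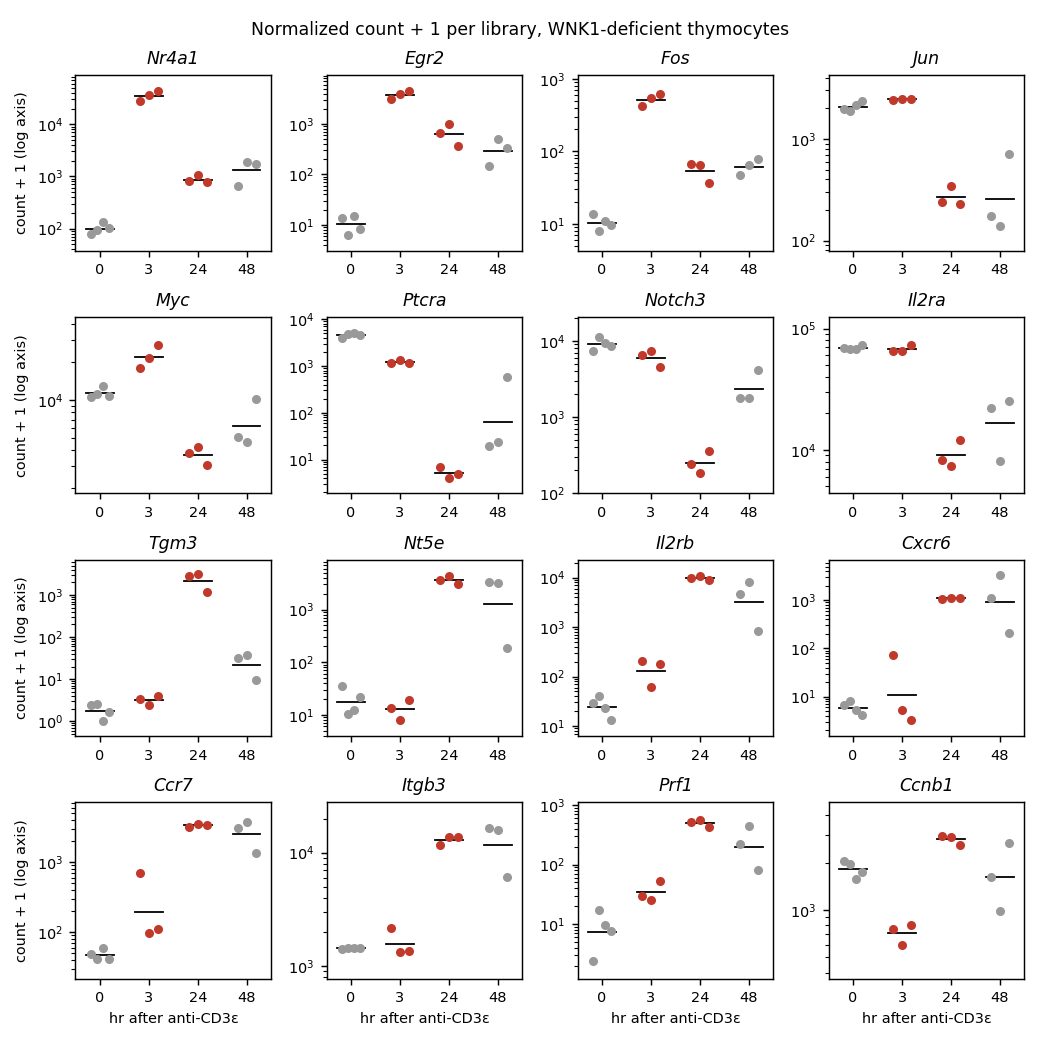
Normalized count + 1 on a log axis for 16 genes in each WNK1-deficient library at 0, 3, 24 and 48 hr, with the 6 compared libraries in red, the others in grey and a bar at the mean of the log2 values. Nr4a1, Egr2 and Fos peak at 3 hr, Ptcra, Notch3 and Il2ra are lowest at 24 hr, and Tgm3 reaches 1174 to 3092 at 24 hr against at most 2.96 at 3 hr.

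The sequences before the gene start were searched for binding motifs of the factors known to drive such genes, in the 250 bases before the first RefSeq start of each gene (GRCm38.p6; both strands). The core of the cyclic AMP response element, TGACGTC, lay in 2.88% of 27025 such windows and in 1 of the 9 windows found for the 12 EGR, NR4A, NAB and IER genes, that of Nr4a3. The window of Nr4a3 is shown because it alone of the 9 held the motif, which is in capitals.
Nr4a3 (chr4:48045055-48045304, + strand): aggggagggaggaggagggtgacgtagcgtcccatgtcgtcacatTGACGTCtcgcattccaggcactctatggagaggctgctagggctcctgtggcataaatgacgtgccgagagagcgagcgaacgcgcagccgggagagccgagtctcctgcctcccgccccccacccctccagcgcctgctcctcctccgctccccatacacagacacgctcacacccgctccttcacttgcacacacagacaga
The serum response (CArG) box lay in 1.40% of all windows and in none of the 9 windows of either list, which says nothing of sites further upstream.

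Inhibitors of signaling were followed by list, beside the 18.6% of all tested genes that fell and the 18.8% that rose. Of 11 MAP kinase phosphatases and Sprouty proteins 4 fell and none rose (median -0.34): Dusp5, a nuclear phosphatase of ERK, fell from 8492, 9729 and 10723 to 989, 1102 and 1459 (log2 change -3.04 ± 0.19, adjusted p = 5.2e-09), and Spry1, Dusp2 and Dusp1 fell (log2 changes -2.41, -1.54 and -0.82). The cytoplasmic ERK phosphatase Dusp6 did not pass the test, at 1661, 2158 and 2307 and then 2478, 3464 and 2886. Of 15 NF-kB genes 7 fell and none rose (median -0.70), led by Tnfaip3, the A20 inhibitor of NF-kB (6264, 6932 and 7283, then 1572, 1701 and 1405; log2 change -2.13 ± 0.18, adjusted p = 8.0e-08). Its list also held the inhibitors Nfkbid and Nfkbie (log2 changes -1.92 and -1.60), while Nfkb1 did not pass the test (log2 change -0.04). Of 7 SOCS and PIM genes 6 fell (median -1.11), with log2 changes of -2.69, -2.55 and -2.11 for the JAK inhibitors Socs2, Socs3 and Cish. Of 5 mRNA decay and antiproliferative genes 4 fell (median -1.002), Zfp36 from 4393, 5129 and 6281 to 1750.4, 1821 and 1919 (log2 change -1.51 ± 0.31, adjusted p = 8.9e-04) and Zfp36l2, Btg2 and Zfp36l1 with log2 changes of -1.42, -1.002 and -0.95.

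Secreted and surface ligands split. Of 15 tested cytokine genes 7 fell and 4 rose (median -0.43), beside 18.6% and 18.8% of all tested genes. The interferon-γ gene Ifng fell from 241, 174 and 386 to 18.5, 16.8 and 13.1 (log2 change -3.90 ± 0.45, adjusted p = 2.8e-06), and Ccl4, Cxcl10 and Lif fell (log2 changes -3.93, -4.20 and -2.81). Xcl1, Ccl5, Tnfsf8 (CD30 ligand) and Tnfsf14 (LIGHT) rose (log2 changes 2.76, 2.03, 1.83 and 1.33). For Ccl5 the value of 521 in replicate 1 at 3 hr lay near the 24 hr libraries (768, 917 and 573), and without that library the log2 change was 2.79. Ccl5 was not called by edgeR or without any 1 of the other 5 libraries. Of the 4 rises 1 or 2 passed the test without replicate 2 at 3 hr or without replicate 1 or 2 at 24 hr.

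Genes of the DN3 program fell. Of 14 DN3 and Notch genes 10 fell and 1 rose, and the median log2 change of -2.75 was the lowest of the 32 lists. Among all tested genes 18.6% fell and 18.8% rose. Ptcra (chromosome 17, 46755663 to 46763712, GRCm38), which encodes the invariant chain of the pre-TCR, had 1157, 1368 and 1135 normalized counts at 3 hr and only 5.93, 3.06 and 3.93 at 24 hr (log2 change -7.88 ± 1.02, adjusted p = 9.3e-06). It had been at 4627 ± 527 (mean ± SD, n = 4) at 0 hr. Il2ra, the CD25 chain that marks DN3 cells, fell from 65305, 65231 and 73438 to 8202, 7374 and 12039 (log2 change -2.92 ± 0.44, adjusted p = 4.0e-05), and Dntt, the terminal transferase, from 36411, 45008 and 33468 to 3122, 1666 and 3223 (log2 change -3.89 ± 0.60, adjusted p = 5.1e-05).

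Notch3 fell from 6496, 7381 and 4576 to 240.3, 180.4 and 355 (log2 change -4.59 ± 0.60, adjusted p = 1.0e-05) and so did Notch1 (log2 change -2.32). Their targets Hes1 and Dtx1 fell (log2 changes -2.93 and -2.59). Rag2, whose product is the partner of RAG1 in receptor gene rearrangement, fell from 140.1, 237 and 141 to 12.6, 4.59 and 17 (log2 change -3.92 ± 0.93, adjusted p = 0.0024), as did the Ets factor gene Spib (log2 change -4.50). Lyl1, a bHLH factor of early progenitors, was the 1 gene of the list that rose, from 169, 70 and 90.3 to 1147, 705 and 1179.5 (log2 change 3.25 ± 1.00, adjusted p = 0.014; not past the threshold without replicate 2 at 3 hr). The site of RBPJ, the factor through which Notch acts (GTGGGAA), lay in none of the 13 windows of 250 bases found before these genes and in 5.41% of all windows, which were searched as described above.

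Genes of the next stage did not rise as a group: of 18 genes of the CD4+CD8+ stage 8 fell and 4 rose (median -0.34), and 7 rose with lane as a covariate. Among all tested genes 18.6% fell and 18.8% rose. Cd8a was at 217, 124 and 79.9 and fell to 14.8, 3.06 and 23.6 (log2 change -3.48 ± 1.19, adjusted p = 0.025), and Cd8b1 fell (log2 change -4.19). The calls of Cd8a and Cd8b1 were lost with lane as a covariate, and that of Cd8a also without any 1 of 3 libraries (replicates 1 and 2 at 3 hr and 2 at 24 hr). Cd4 was at 59.6, 106 and 115 and then 191, 205 and 170.4, which did not pass the test (log2 change 1.06 ± 0.94). The rises were the TCRα constant gene Trac (168, 127 and 289, then 1211, 1451 and 749.7), the chemokine receptor gene Ccr9, and Lef1 and Tox, which encode HMG-box factors (log2 changes 2.57, 1.14, 1.08 and 0.98). The call of Trac was lost without replicate 1 or 2 at 24 hr or replicate 2 at 3 hr, and that of Lef1 with a lane covariate in the 3 and 24 hr libraries alone.

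Of 19 genes that transmit the TCR signal 6 rose and 6 fell (median -0.16), beside 18.8% and 18.6% of all tested genes. Rasgrp1, the activator of RAS, rose from 16508, 20608 and 21469.8 to 43063, 45232 and 39318 (log2 change 1.13 ± 0.21, adjusted p = 3.8e-04). Cd3g and Lck fell (log2 changes -1.16 and -0.80), whereas Zap70 did not pass the test (log2 change 0.53). Of 15 activation and costimulatory receptors 4 rose and 3 fell (median 0.09), beside the same shares of all tested genes. Pdcd1, the inhibitory receptor PD-1, rose from 5362, 6283 and 8263 to 28130.3, 31132 and 24051 (log2 change 2.08 ± 0.35, adjusted p = 1.4e-04), as did the adhesion receptor gene Cd2 (log2 change 2.88). Cd24a, which declines as thymocytes mature, fell from 56897, 73206 and 80401 to 5802, 5897 and 6917 (log2 change -3.49 ± 0.41, adjusted p = 3.0e-06), and the CTLA-4 gene and the early activation gene Cd69 fell (log2 changes -3.21 and -1.15). Cd5 varied within each group, from 1113 to 7847 at 3 hr and from 1313 to 8363 at 24 hr.

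**Figure D3:**
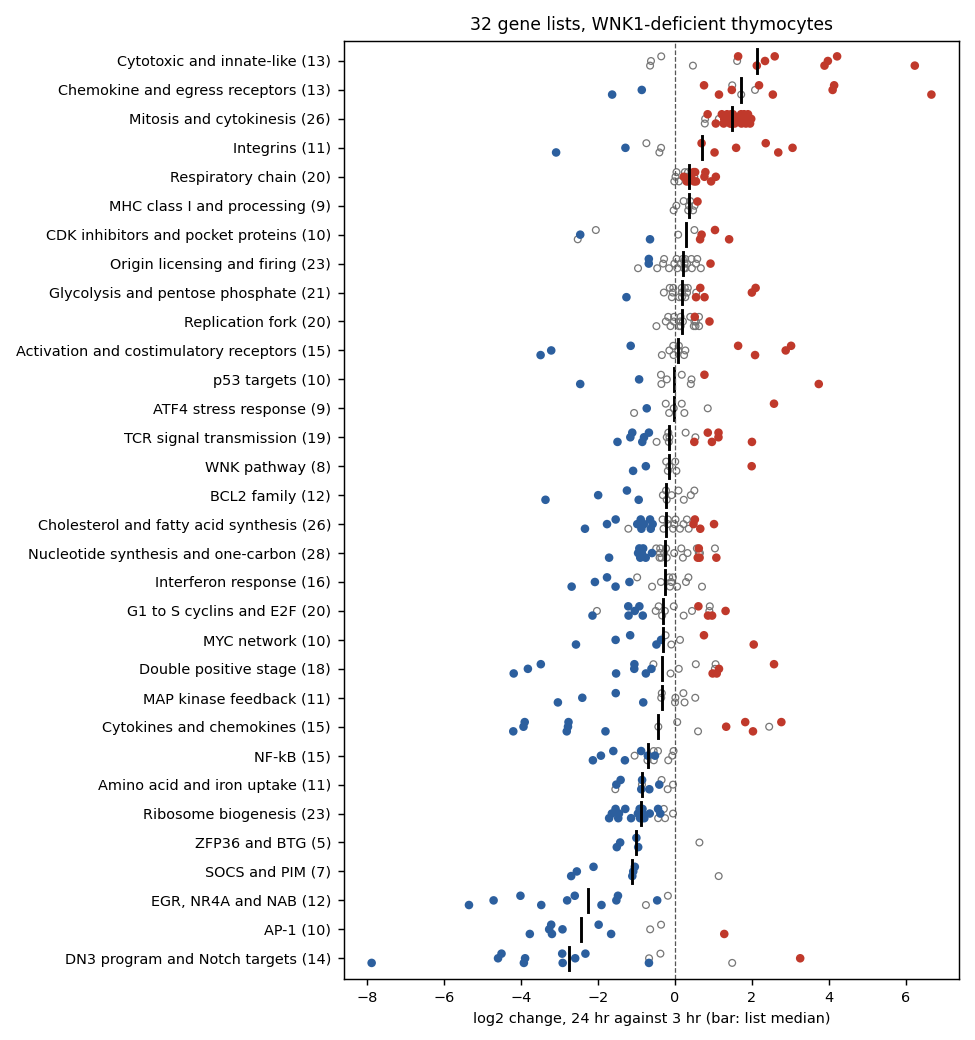
Log2 change from 3 hr to 24 hr in WNK1-deficient thymocytes (x axis) of each tested member of 32 gene lists (y axis, number of tested members in brackets), with members past the threshold filled in red or blue, the others open, a bar at each list's median and a dashed line at the median of all genes. Lists of the DN3 program, AP-1 and EGR, NR4A, NAB and IER genes have medians of -2.75, -2.45 and -2.25, and those of cytotoxic, chemokine receptor and mitosis genes medians of 2.13, 1.72 and 1.48.

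Genes of cell division moved unevenly. Some of the cell cycle genes listed also stand in the figures of the study, which picked them on these libraries, so their direction is not independent evidence. Of 26 mitosis and cytokinesis genes 23 rose and none fell, against 18.8% of all tested genes that rose, with log2 changes from 0.78 to 1.98 and a median of 1.48. Ccnb1, the cyclin that drives entry into mitosis, rose from 757, 596 and 803 to 2971, 2914 and 2579 (log2 change 1.98 ± 0.39, adjusted p = 5.0e-04), and Ccnb2 from 762, 643 and 842 to 3084, 2774 and 2793 (log2 change 1.95 ± 0.38, adjusted p = 5.0e-04). The kinase gene Plk1 and Birc5, which encodes survivin, rose (log2 changes 1.90 and 1.87). Ccnb1 had been at 1563 to 2036 at 0 hr, so that the 3 hr libraries lay below and the 24 hr libraries above the libraries without injection. Without replicate 2 at 3 hr 15 of the 26 passed.

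The CCAAT box, which NF-Y binds in many promoters of the G2 and M phases, lay within the 250 bases before the start in 18 of the 22 mitosis genes with a window, or 81.8%, and in 34.5% of all windows. The cell cycle homology region letters TTTGAA lay in 7 of the 22, or 31.8%, and in 16.3% of all. The windows of the mitosis genes with the largest changes are shown, with CCAAT or its complement in capitals.
Ccnb1 (chr13:100786487-100786736, - strand): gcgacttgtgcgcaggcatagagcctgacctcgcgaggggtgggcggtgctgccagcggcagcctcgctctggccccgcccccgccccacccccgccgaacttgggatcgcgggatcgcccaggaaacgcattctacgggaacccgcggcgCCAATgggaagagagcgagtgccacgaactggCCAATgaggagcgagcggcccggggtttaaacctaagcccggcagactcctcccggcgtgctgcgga
Ccnb2 (chr9:70421555-70421804, - strand): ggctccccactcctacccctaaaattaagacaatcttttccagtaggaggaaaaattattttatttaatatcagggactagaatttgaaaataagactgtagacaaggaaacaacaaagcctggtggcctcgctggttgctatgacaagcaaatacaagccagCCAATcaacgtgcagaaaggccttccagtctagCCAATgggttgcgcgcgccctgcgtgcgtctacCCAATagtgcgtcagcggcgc

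Few genes of DNA replication passed the test, beside 37.5% of all tested genes. Of 23 origin licensing and firing genes 1 rose and 2 fell (median 0.20), and of 20 replication fork genes 2 rose and none fell (median 0.18). Mcm5, a subunit of the replicative helicase, was at 7151, 7677 and 11832 and then 10908, 10466 and 9969.8, which did not pass the test (log2 change 0.27 ± 0.30). Orc5 rose (686, 556 and 611, then 1172, 1197 and 1136; log2 change 0.92 ± 0.17, adjusted p = 2.4e-04), as did Rpa1 and Rfc2 (log2 changes 0.90 and 0.51), the call of Rfc2 being lost without replicate 2 at 3 hr. Mcm4 and the licensing factor Cdt1 each fell with a log2 change of -0.68, and both calls were lost when any of 5 libraries was left out.

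In control thymocytes, where 43.2% of all genes changed over the same step, 10 licensing genes and 15 fork genes rose and none fell, with medians of 0.66 and 0.87, and all 26 mitosis genes rose (median 2.19). The genotype by time difference passed the threshold for none of the 23, 20 and 26 genes of these 3 lists by limma, edgeR or DESeq2. At an unadjusted limma p below 0.05 there were 5, 8 and 0 such genes, beside 1458 of all 14071 tested genes. The step was the lower one in WNK1-deficient thymocytes for 21, 20 and 26. How often it was lower over all tested genes was not counted. With the lane covariate 5 fork genes rose in WNK1-deficient thymocytes.

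**Figure D4:**
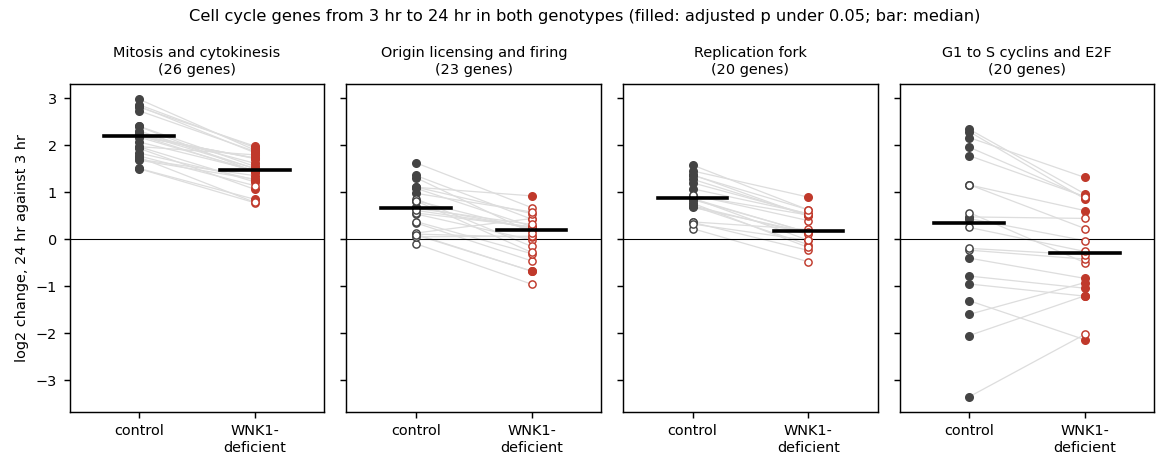
Log2 change from 3 hr to 24 hr (y axis) of each gene of 4 cell cycle lists in control (grey) and WNK1-deficient (red) thymocytes, with the 2 values of a gene joined, filled points past the threshold and bars at the medians. The mitosis medians are 2.19 and 1.48 and those of the replication fork 0.87 and 0.18.

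Of 20 cyclins, kinases and E2F factors of G1 and S phase 6 fell and 4 rose (median -0.30), and the share that rose was near the 18.8% of all tested genes. Ccnd3, the D cyclin that pre-TCR signals use, fell from 20379.5, 20476 and 24024 to 5001, 4254 and 5484 (log2 change -2.14 ± 0.19, adjusted p = 1.4e-07), as did its kinase partner Cdk6 (log2 change -1.21). Ccne1, cyclin E1, was at 297, 266 and 531 and rose to 736, 688 and 619 (log2 change 0.96 ± 0.35, adjusted p = 0.034), and Ccna2, Cdk2 and E2f2 rose as well (log2 changes 1.31, 0.61 and 0.86). These 4 rises were reduced to 0 to 2 when replicate 1 or 2 at 3 hr or any 24 hr library was left out. They were reduced to 2 when libraries were scaled to the same total. In a list of 10 tested genes, CDK inhibitors, pocket proteins and the E3 ligase gene Fbxw7, 4 rose and 2 fell (median 0.29). Cdkn1b, the p27 inhibitor, rose from 2347, 1741 and 1753 to 3109.9, 2993 and 3246 (log2 change 0.69 ± 0.16, adjusted p = 0.0019), as did Cdkn1c and Cdkn2c (log2 changes 1.41 and 1.04). By contrast Cdkn1a, the p21 inhibitor, fell from 656, 599 and 911 to 92, 167 and 138 (log2 change -2.46 ± 0.40, adjusted p = 9.0e-05). The other fall was that of Fbxw7 (log2 change -0.65).

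Myc and most ribosome biogenesis genes fell. Myc, the factor that drives growth of dividing thymocytes, had 17983, 21465 and 27033 normalized counts at 3 hr and 3797, 4286 and 3059 at 24 hr (log2 change -2.57 ± 0.37, adjusted p = 2.8e-05). That put the 24 hr libraries below the 10482 to 12927 of the 0 hr libraries. Of 10 genes of the MYC network 5 fell and 2 rose (median -0.30), and 3 fell without replicate 1 or 3 at 24 hr or replicate 3 at 3 hr. Among all tested genes 18.6% fell and 18.8% rose, so the network's share of rises was near that of all genes. Of the antagonists that compete for MAX, Mnt and Mga fell (log2 changes -1.54 and -1.16), and Mxd3 rose from 257, 193 and 246 to 969, 873 and 1024 (log2 change 2.05 ± 0.44, adjusted p = 0.0012). Of 23 ribosome biogenesis genes 19 fell and none rose (median -0.89), among them Gnl3 (nucleostemin), from 3633, 4149.8 and 3800.5 to 1278, 1206 and 1062 (log2 change -1.71 ± 0.35, adjusted p = 7.9e-04), and Polr1b, a subunit of RNA polymerase I (log2 change -1.47). The E-box CACGTG, the site of MYC and MAX, lay in 2 of 20 windows before these genes, those of Nop2 and Rrn3, and in 6.05% of all windows.

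Of 11 amino acid and iron uptake genes 6 fell and none rose (median -0.85), with Slc7a5, the LAT1 leucine transporter, going from 6777, 8032 and 10894 to 2724, 3517 and 2611 (log2 change -1.52 ± 0.29, adjusted p = 4.6e-04). Among 28 nucleotide and one-carbon genes 8 fell and 4 rose (median -0.26), and the count of falls was 5 without replicate 3 of either time and 13 with lane as a covariate. Over all tested genes 18.6% fell and 18.8% rose. The one-carbon enzyme Shmt1 and the purine enzyme Ppat fell (log2 changes -1.71 and -0.96), while Tk1, the S phase thymidine kinase, rose (log2 change 1.08), a call lost without replicate 1 at 24 hr or replicate 2 at 3 hr. Of 26 cholesterol and fatty acid genes 10 fell and 4 rose (median -0.24). Hsd17b7, an enzyme of sterol synthesis, fell from 627, 783 and 692 to 207, 194 and 214 (log2 change -1.76 ± 0.24, adjusted p = 1.4e-05), as did Sqle, squalene epoxidase (log2 change -1.54). Without replicate 1 at 24 hr 6 of the 10 falls passed, and without replicate 3 at 24 hr 2 of the 4 rises.

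Of 20 respiratory chain subunits 11 rose and none fell (median 0.38; 6 rose without replicate 2 at 24 hr), with Cox7a2 going from 1638, 1548 and 1668 to 3459, 3632 and 3064 (log2 change 1.06 ± 0.20, adjusted p = 4.6e-04). Of 21 glycolysis genes 5 rose and 1 fell (median 0.18), a share of rises near the 18.8% of all tested genes and a share of calls below their 37.5%. Eno1, enolase 1, rose from 4902, 4119.8 and 4911 to 19918, 19744 and 16071 (log2 change 2.00 ± 0.28, adjusted p = 1.8e-05) as did the lactate exporter Slc16a3 (log2 change 2.10), while Hk2, hexokinase 2, fell (log2 change -1.26). Copies of Eno1 exist as pseudogenes, whose reads the counting may have split. Of 9 ATF4 stress response genes 1 rose and 1 fell, fewer than the shares of all tested genes (median -0.03). Ddit4 (REDD1), an inhibitor of mTORC1, rose from 902, 697 and 412 to 3964, 3866 and 3567 (log2 change 2.57 ± 0.46, adjusted p = 2.2e-04) while Atf4 fell (log2 change -0.73).

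Of 12 BCL2 family genes 4 fell and none rose (median -0.22). The share of calls was below the 37.5% of all tested genes, of which 18.6% fell. Bcl2l11, the proapoptotic BIM, fell from 3744, 4724 and 4992 to 536, 440.2 and 342 (log2 change -3.36 ± 0.32, adjusted p = 2.8e-07), as did the proapoptotic Pmaip1 (NOXA) and Bmf and the prosurvival Bcl2l2 (log2 changes -1.99, -1.25 and -0.94). Among 10 p53 targets 2 rose and 2 fell, each share near that of all tested genes (median -0.02). Perp, a membrane protein of desmosomes and cell death, rose from 13.2, 12.9 and 11.8 to 243, 216 and 111 (log2 change 3.73 ± 0.71, adjusted p = 3.9e-04).

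Most of the tested receptors for migration rose. Of 13 chemokine and egress receptors 8 rose and 2 fell, with a median log2 change of 1.72, beside 18.8% and 18.6% of all tested genes. Ccr7, which guides cells towards the medulla and lymph nodes, was at 687, 95.7 and 111 at 3 hr and 3219.7, 3462 and 3334 at 24 hr (log2 change 4.09 ± 0.57, adjusted p = 2.1e-05). The first of the 3 hr values is that of the library that stands apart, and without it the log2 change was 5.003. Cxcr6 went from 72, 4.29 and 2.22 to 1047, 1124 and 1089 (log2 change 6.66 ± 0.94, adjusted p = 2.1e-05; 8.04 without the same library), and Ccr4 rose (log2 change 2.54). S1pr1, the egress receptor, was at 1631, 34.3 and 10.4 and then 369, 228 and 583, with the single highest value in the same 3 hr library, and did not pass the test. Its activator Klf2 was at 3490.5, 414 and 343 and then 2368, 1993 and 3779.8, likewise highest of its group in that 3 hr library, and did not pass the test. Cxcr4, which works with the pre-TCR at the checkpoint, fell from 8287, 8327 and 9321 to 4293, 4469.7 and 5588 (log2 change -0.86 ± 0.19, adjusted p = 0.0013), as did S1pr2 (log2 change -1.63).

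Of 11 integrin genes 6 rose and 2 fell (median 0.69), beside 18.8% and 18.6% of all tested genes. Itgb3 rose from 2165, 1313 and 1364 to 11681, 13875 and 13725 (log2 change 3.05 ± 0.44, adjusted p = 2.9e-05). Itgb2 and Itgal, the chains of LFA-1, rose (log2 changes 2.36 and 1.03), and Itgae, the CD103 chain, fell from 1566, 1086 and 929.8 to 88.3, 147 and 195 (log2 change -3.09 ± 0.52, adjusted p = 1.4e-04). Itgb7 was at 5677, 587 and 603 and then 7401, 7103 and 10156 (log2 change 2.68 ± 0.87, adjusted p = 0.02). The 3 hr library that stands apart again held the highest of its 3 hr values, and without it the log2 change was 3.77. Itgb7 was not called by edgeR or DESeq2, nor without replicate 2 or 3 at 3 hr or replicate 3 at 24 hr.

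Of 13 tested genes of cytotoxic and innate-like lymphocytes 8 rose and none fell, with the highest median of the 32 lists (2.13). Among all tested genes 18.8% rose and 18.6% fell. Il2rb, the β chain of the IL-2 and IL-15 receptors, rose from 205, 61.4 and 179.9 to 10041, 10998 and 8882 (log2 change 6.23 ± 0.75, adjusted p = 4.2e-06). Prf1, perforin, rose from 28.6, 24.3 and 52.6 to 526, 563 and 434 (log2 change 3.88 ± 0.70, adjusted p = 2.5e-04), and Zbtb16, the PLZF factor of innate-like lymphocytes, from 365, 119 and 136 to 3623, 4144 and 2535 (log2 change 4.21 ± 1.09, adjusted p = 0.0048). Ctsw, Fcer1g and Tbx21 rose (log2 changes 2.59, 2.34 and 2.13).

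The granule genes Gzma and Gzmb did not pass the test, Gzma at 10775, 7259 and 8056 and then 4952, 3696 and 8988 and Gzmb at 1804, 65.7 and 124 and then 179, 196 and 202. Markers of NK cells and innate lymphoid cells moved with this list: their 6 genes summed to 61.4 to 178 at 3 hr and 273 to 628 at 24 hr, and 2 of the 6 rose, Klre1 (6.19, 0 and 1.48, then 54.9, 12.2 and 23.6) and Klra8, a member of a family of near copies (2.32, 2.86 and 1.48, then 41.5, 48.9 and 32.8). None of the 6 was at 0 in every library, and the defining gene Ncr1 was at 25.5, 17.1 and 33.3 and then 108, 118 and 59. Their part in the result was not tested.

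Of 16 interferon-stimulated genes 5 fell and none rose (median -0.26), Rsad2 (viperin) from 1680.2, 394 and 1226 to 89, 125 and 270.0 (log2 change -2.68 ± 0.94, adjusted p = 0.03). Replicate 2 at 3 hr was the lowest of its group for Rsad2, Isg15 and Oasl2, and the count of 5 became 1 when replicate 1 or 3 at 3 hr or replicate 1 or 2 at 24 hr was left out, and 2 with lane as a covariate. Of 9 class I presentation genes 1 rose, Tap1 (log2 change 0.58; list median 0.36; not past the threshold without replicate 2 at 3 hr). Among all tested genes 18.6% fell and 18.8% rose, so the class I share of rises was below that of all genes. In the WNK pathway, where 8 of 13 genes were tested and 1 rose and 2 fell, one of them Wnk1 itself (median -0.16), the kinase Stk39 rose from 271, 296 and 472 to 1308, 1527 and 1202 (log2 change 1.99 ± 0.35, adjusted p = 2.2e-04) and its relative Oxsr1 did not pass the test, at 3309, 3441 and 3606 and then 3157, 3379.8 and 2865. Among the cotransporters Slc12a7 (KCC4) fell (log2 change -0.76) and Slc12a2 (NKCC1) did not pass (log2 change -0.23). The share of calls in the WNK pathway was near the 37.5% of all tested genes.

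The largest named rise was that of Tgm3, an epidermal transglutaminase (chromosome 2, 129987794 to 130050399, GRCm38), at 2.32, 1.43 and 2.96 at 3 hr and 2785, 3092 and 1174 at 24 hr (log2 change 9.41 ± 0.65, adjusted p = 1.0e-08). At 48 hr it was at 30.3, 35.7 and 8.62. Nt5e, the CD73 ectonucleotidase that makes adenosine, rose from 12.4, 7.15 and 18.5 to 3648, 4300.0 and 3060.3 (log2 change 8.14 ± 0.85, adjusted p = 8.8e-07) and the chromatin protein gene Hmga2 from 2.32, 2.86 and 2.96 to 809, 738 and 479.7 (log2 change 7.48 ± 0.80, adjusted p = 1.1e-06). Cap2, an actin regulator, Chl1, an adhesion molecule of neurons, the tensin Tns4 and the cation channel Trpm1 rose (log2 changes 6.66, 6.79, 6.47 and 6.11). Ahsg (fetuin-A) was at 1.55, 0 and 0 and Gcsam at 3.87, 0 and 0 at 3 hr, so the size of their rise depends on the pseudocount, and at 24 hr they were at 283, 196 and 287 and 336, 547 and 81.3. St6galnac2, a sialyltransferase, was at 1649.5, 12.2 and 1841 at 24 hr and 0.774, 7.15 and 0.74 at 3 hr, with replicate 2 far below the other 24 hr libraries (log2 change 6.87 ± 2.41, adjusted p = 0.029; not past the threshold without any 1 of 4 libraries).

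Beside Ptcra and Nr4a1 the largest falls were those of Slc5a9, a sodium-coupled sugar transporter (621, 892 and 731, then 3.71, 18.3 and 0), the arylsulfatase Arsi (1077, 699 and 828, then 2.23, 1.53 and 18.3) and Dgkeos, which starts next to Dgke on the other strand (983, 3008 and 1618, then 39.3, 10.7 and 10.5). The largest falls were chosen among genes whose times did not overlap, and counting was by strand. The Wnt receptor Fzd9, the collagen Col27a1, the CD157 gene Bst1 and Ddn fell (log2 changes -6.32, -6.19, -5.48 and -5.36). H19, an imprinted noncoding RNA, fell from 2229.7, 2516 and 2253 to 45.2, 38.2 and 91.7 (log2 change -5.40 ± 0.81, adjusted p = 4.0e-05), after 18076 ± 3249.7 at 0 hr (mean ± SD, n = 4). Khdc1a, a member of a family of near copies, fell (log2 change -5.47).

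The step was then compared with that of control thymocytes, where 6076 genes changed (43.2%). Of these, 3905 were among the 5273 genes of WNK1-deficient thymocytes and 11 of the 3905 had the opposite sign. Single control libraries stood apart for some genes. Ptcra was at 59.2, 115 and 2344 in replicates 1, 2 and 3 of the control at 24 hr. Cd8a was at 54, 432 and 12652 in replicates 1, 2 and 3 of the control at 3 hr. Control steps and genotype differences rest on these libraries too. A genotype by time difference passed the threshold for 41 genes (0.291%), 18 with the more positive step in WNK1-deficient thymocytes and 23 with the more negative, while 1458 had an unadjusted p below 0.05 (limma). The count was 34 by edgeR and 256 by DESeq2. It was 264 without replicate 1 of the control at 3 hr, 15 without replicate 2 of that group, 25 and 63 without replicates 1 and 3 of the control at 24 hr, 16 without replicate 1 of WNK1-deficient thymocytes at 3 hr and 2 to 4 without any of replicates 2 and 3 of WNK1-deficient thymocytes at 3 hr or replicates 1 and 2 at 24 hr. With lane as a covariate it was 138, but 3 when only the 3 and 24 hr libraries were fitted and 0 within lane 4 (709 at an unadjusted p below 0.05), so the 41 depend on the libraries and the fit.

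The most positive difference was that of Cd83, a surface protein of activated and positively selected cells. WNK1-deficient thymocytes had 59.6, 38.6 and 51.8 at 3 hr and 196, 261 and 122 at 24 hr, and control thymocytes 35.3, 29.7 and 23 and then 4.93, 1.66 and 6.42 (difference of the log2 steps 4.49 ± 0.55, adjusted p = 9.2e-04). The 2 genotypes thus moved in opposite directions, each past the threshold. Cd83 kept its call in 27 of 29 alternatives, more than any other of the 12 genes named for this comparison.

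Zbtb7b, which encodes the ThPOK factor of the CD4 lineage, was at 8.51, 4.29 and 20 and then 378, 416 and 185 without WNK1 and at 4.91, 5.93 and 4.19 and then 16.4, 9.98 and 3.67 in controls (difference 4.23 ± 0.88, adjusted p = 0.043), a call kept in 11 of 29 alternatives. Ctla2a, an inhibitor of cysteine proteases, was at 3128, 2615 and 3318 at 24 hr without WNK1 and at 229, 433 and 472 in controls, from 1621, 1660.5 and 1779 and 1054, 3362 and 4742 at 3 hr (difference 3.66 ± 0.57). Plek, Trim16 and Tspan4 had differences of 3.56, 2.502 and 1.88.

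Among genes with the more negative step, Gzma, granzyme A, was at 2215, 1400.1 and 2731 and rose to 18721, 9202 and 18615 in control thymocytes, and the WNK1-deficient values given above did not pass the test (difference -3.50 ± 0.70, adjusted p = 0.039). Tmprss4, a membrane serine protease, fell from 417, 547 and 639.6 to 80.1, 96.3 and 121 without WNK1 and was at 471, 459.8 and 283 and then 491, 482 and 537 in controls (difference -2.77 ± 0.48, adjusted p = 0.018). Col27a1, H2-Q2, Akap6 and Slc16a5 had differences of -4.38, -4.35, -2.78 and -2.70. H2-Q2 has near-identical class I relatives, so its counts are uncertain. Of the 476 tested genes of the 32 lists 2 passed, Gzma and Tnfsf11 (RANKL), which was at 1458, 1902 and 1713 and then 1760.0, 1785 and 1709 without WNK1 and at 1709, 2304 and 1797 and then 799.9, 607 and 551 in controls.

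**Figure D5:**
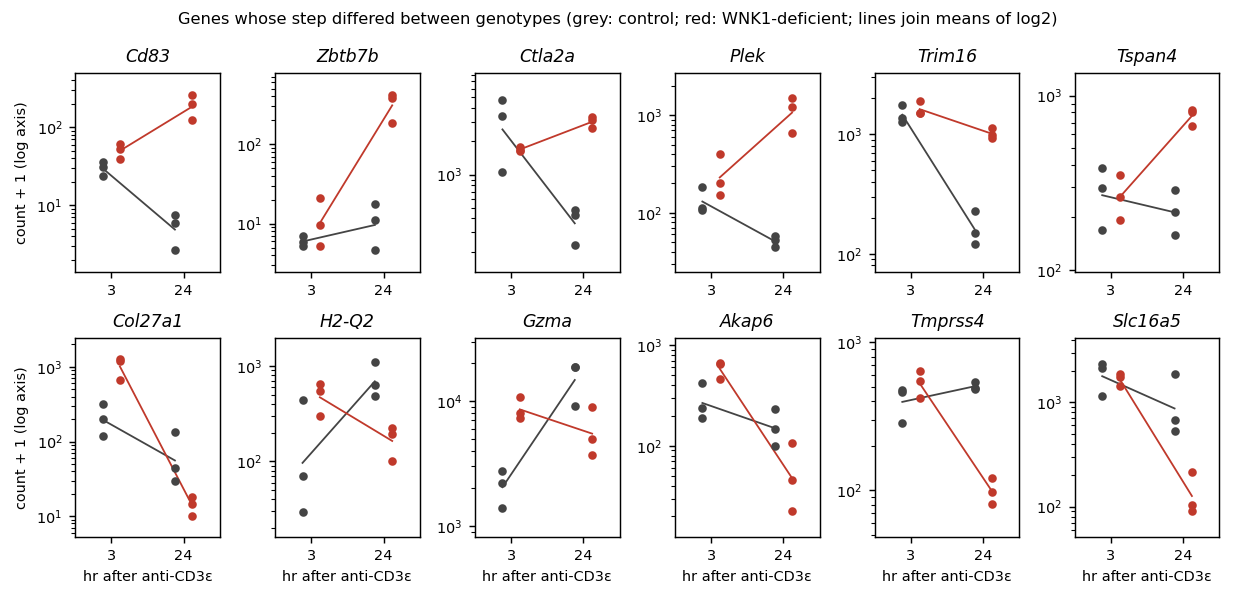
Normalized count + 1 on a log axis at 3 and 24 hr in each control (grey) and WNK1-deficient (red) library for the 12 named genes whose step differed between the genotypes, with lines joining the means of the log2 values. In the upper row Cd83 reaches 122 to 261 in WNK1-deficient thymocytes at 24 hr against at most 6.42 in control thymocytes, and in the lower row Tmprss4 falls to 80.1 to 121 against 482 to 537.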

How the data were processed

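PolyA+ RNA of sorted thymocytes was sequenced per mouse. Per the labels and methods, the authors trimmed reads with Trimmomatic 0.36, aligned them to GRCm38 with STAR 2.5.2a, counted genes by strand with RSEM 1.2.31 and deposited a signal per gene, the count divided by a size factor per library (DESeq2 1.18.1, R 3.4.1). Every value above 0 (100%, tolerance 0.001) was a whole multiple of the worth of 1 read, which gave the depth and the reads used for count tests.

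Values were tested as log2(value + 1) with limma 3.58.1 (R 4.3.3), with a trend on level, on genes with a mean of at least 10 over the 6 libraries, in 1 fit of 25 libraries in 8 groups. Fold changes are on that scale, which understates changes of low genes, and ± after a log2 change is the standard error. Adjusted p is by Benjamini-Hochberg over all tested genes, with a threshold of 0.05. The genotype difference is the step of WNK1-deficient minus that of control thymocytes. Calls from count tests were by edgeR 4.0.16 and DESeq2 1.42.0 on recovered reads. Tests were tried on simulated data.

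Alternatives were the pseudocount, the filter, the scaling, the trend, the libraries fitted, a replicate block, lane, a 2-fold minimum, the count tests and leaving out each library. A lane covariate with the 3 and 24 hr libraries alone was added after seeing the data. The members and the gene lists (32 lists and 9 marker lists) were chosen with earlier results of these data known. Named genes were the 12 largest rises and falls of those not overlapping with a mean of at least 100, up to 4 members per list and any against its list's direction, the 6 largest genotype differences of either sign, and 13 fixed genes. Further list members are named with values, some chosen after these were seen, and a few genes that the rule names are not reported here. Promoter windows are from RefSeq (GRCm38.p6), drawn from the 250 bases before the start. Same-numbered 3 and 24 hr libraries did not deviate together (correlations -0.04, -0.03 and -0.02), so the numbers do not pair them.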

Additional observations from a re-analysis of the deposited data

Results flagged for a closer look

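The step from 3 hr to 24 hr differed between the genotypes, by the genotype by time term of limma, for 41 genes, and the 12 named ones are given here as the log2 step of WNK1-deficient minus that of control thymocytes. The differences below 0 were -4.38 for Col27a1, -4.35 for H2-Q2, -3.50 for Gzma, -2.775 for Akap6, -2.77 for Tmprss4 and -2.698 for Slc16a5. Those above 0 were 4.494 for Cd83, 4.23 for Zbtb7b, 3.662 for Ctla2a, 3.556 for Plek, 2.502 for Trim16 and 1.879 for Tspan4.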

How the results depend on the processing

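The count of 5273 changed genes lay between 4442 and 7132 under the alternatives that kept all of the 6 libraries, apart from 1873 (812 up, 1061 down) with lane 4 only, where 1 library stands for 24 hr and is assumed to vary like the other groups, and 2469 (1250 up, 1219 down) with a 2-fold minimum. It was 5053 with the replicate block. Leaving out 1 of the 6 libraries gave 3945 to 4715, with 1923 to 2363 up and 2022 to 2352 down. The 254 calls among list genes became 126 with lane 4 only and 163 with the 2-fold minimum. Rises made up 50.3% of the calls, 43.5% with libraries scaled to the same total and 43.4% with lane 4 only. The 41 genotype differences became 77 with a pseudocount of 5, 26 with the same total, 11 with the 3 and 24 hr libraries alone, 20 with the replicate block, 138 with lane as a covariate, 3 with that covariate in the 3 and 24 hr libraries, 0 with lane 4 only, 256 with DESeq2 and 34 with edgeR. Leaving out 1 library gave 2 to 264. With fewer libraries fewer residual degrees of freedom are left, and otherwise the cause was not tested. The step of Gzma, which did not pass the test (log2 change -0.65), reversed to 0.068 with lane 4 only. Of 171 named genes past the threshold 108 kept the call in every alternative, and 0 changed direction. The block changed the call of 4 of them. Depth limits the low values: in 24 hr and 3 hr libraries at 0 or a few reads the size of a change depends on the pseudocount.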

Other observations

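A few genes, chosen after their values were seen, were listed at 0 in each library of 1 time and at 50 or more in each library of the other, and their folds are lower bounds against 3 reads per library. Bpi, which encodes a bactericidal protein of neutrophil granules, was at 0 in the 3 hr libraries and at 102, 79.5 and 78.6 in the 24 hr libraries of WNK1-deficient thymocytes, at least 29.5-fold higher. The noncoding 9230105E05Rik (chromosome 10, 120389523 to 120392793, GRCm38), which lies within the span of Hmga2, was at 0 at 3 hr and at 313, 324 and 109 at 24 hr, at least 84.5-fold higher. The gene ENSMUSG00000107478, without a symbol in the table used, was at 704, 616 and 945 at 3 hr and at 0 at 24 hr, at least 211-fold lower.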
